A study of Mus musculus with 24 samples.

Results

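PPAR alpha is the nuclear receptor through which fatty acids switch on their own oxidation in the liver. It binds DNA as a pair with RXR alpha, at tandem repeats of a short motif, and its activity normally rises when fasting floods the liver with fatty acids. A handful of its targets answer so strongly to fasting and to fibrate drugs that they are used as sentinels of the pathway in mouse liver. The genes described here are 10 such sentinels, listed by name: the microsomal fatty acid omega-hydroxylases Cyp4a10, Cyp4a14, Cyp4a31 and Cyp4a32, the peroxisomal oxidation enzyme Ehhadh, the acyl-CoA thioesterases Acot1 and Acot2, the pantetheinase Vnn1, the pyruvate dehydrogenase kinase Pdk4 and the transcription factor Creb3l3. All 10 were among the 14995 genes of the table, and all 10 were among the 13121 genes with enough counts to be tested.

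Livers came from 3 groups of obese mice, 8 libraries each, collected 20 weeks after surgery. RYGB mice had Roux-en-Y gastric bypass, in which food skips most of the stomach and the first stretch of the small bowel. WM mice were held by calorie restriction at the weight of the bypassed mice, and Sham mice had a sham operation. Strain, sex, age, diet and the feeding state at death, on which these genes depend, are not stated in the labels, nor is whether WM mice had any operation. Libraries are numbered as in the labels, and whether each came from a separate animal is not stated, so p-values measure the spread between these libraries.

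Messenger RNA was read from its 3′ end, about 1 fragment per transcript, and levels below are CPM, counts scaled to a common library size by TMM, without division by gene length. Library totals were 14002193 to 19958019 counts in RYGB, 14208021 to 22766612 in WM and 13659647 to 17391377 in Sham. The summed level of 7 hepatocyte markers was 78200 to 134000 CPM in RYGB and 74000 to 135000 CPM in WM, against 31200 to 72700 CPM in Sham, with all 7 markers in the table. Long transcripts were relatively less abundant in both weight-loss groups: the slope of log2 level on log2 transcript length was -0.148 to 0.0233 in RYGB and -0.212 to 0.0539 in WM, against 0.0926 to 0.241 in Sham. Pancreatic acinar transcripts, 15 of 17 listed markers being in the table, reached 3140 CPM in RYGB 18, 3250 CPM in RYGB 19 and 1400 CPM in Sham 17, and at most 188 CPM elsewhere. Among the other marker lists, stellate cell markers summed to 269 to 401 CPM in RYGB and 209 to 360 CPM in WM against 389 to 771 CPM in Sham, and erythrocyte markers to 2810 to 5660 CPM in RYGB and 1410 to 9960 CPM in WM against 748 to 2410 CPM in Sham. Cholangiocyte markers summed to 31.7 to 50.6 CPM in RYGB and 21.3 to 37.3 CPM in WM against 44.8 to 101 CPM in Sham. Kupffer cell markers summed to 198 to 889 CPM in RYGB and 249 to 756 CPM in WM against 71 to 363 CPM in Sham, and endothelial markers to 135 to 374 CPM in RYGB and 239 to 382 CPM in WM against 71.5 to 275 CPM in Sham. Lymphocyte markers summed to 21.3 to 227 CPM in RYGB and 6.17 to 231 CPM in WM against 4.01 to 22 CPM in Sham. The ranges of recruited macrophage and adipocyte markers overlapped widely. In tissue RNA, fewer cells of a type and less RNA per cell cannot be told apart.

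The 4 Cyp4a genes lie side by side on chromosome 4 (GRCm38, GENCODE M21), and the last 60 coding bases are shown to compare them. After these bases the annotated transcripts run on for 521 (Cyp4a10), 911 (Cyp4a31), 943 (Cyp4a14) and 0 (Cyp4a32) bases. Only for Cyp4a32 do the bases shown form the 3′ end of the annotated transcript, so for the others they do not show how reads are told apart. Cyp4a14 is on the minus strand at chr4:115486200-115496142, and Cyp4a10, Cyp4a31 and Cyp4a32 follow on the plus strand at chr4:115518264-115533649, chr4:115563649-115579015 and chr4:115600969-115621602, with gaps of 22.1, 30.0 and 22.0 kb. Each stretch lies within 1 exon, ends with the stop codon and is written on the coding strand, with capitals where a base differs from Cyp4a10. Their coordinates are chr4:115532640-115532699 for Cyp4a10, chr4:115578045-115578104 for Cyp4a31, chr4:115621543-115621602 for Cyp4a32 and chr4:115487143-115487202 for Cyp4a14.
Cyp4a10: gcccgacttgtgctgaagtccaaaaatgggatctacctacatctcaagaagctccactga
Cyp4a31: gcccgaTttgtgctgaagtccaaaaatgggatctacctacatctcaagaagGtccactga
Cyp4a32: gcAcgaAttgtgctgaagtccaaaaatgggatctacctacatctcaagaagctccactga
Cyp4a14: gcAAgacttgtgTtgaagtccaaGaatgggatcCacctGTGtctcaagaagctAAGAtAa

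Cyp4a31 and Cyp4a32 each differ from Cyp4a10 at 2 of these bases and Cyp4a14 at 13. Over the whole coding sequence, Cyp4a10 is 96.6% identical to Cyp4a31, 97.2% to Cyp4a32 and 76.8% to Cyp4a14. Of the 451 windows of 50 bases, the read length, in the last 500 bases of each annotated transcript, none of Cyp4a14 recurs in another gene, and 27 of Cyp4a10 and 27 of Cyp4a31 (6.0% each) are shared between them. The annotated Cyp4a32 transcript ends at its stop codon, and 301 of its windows (66.7%) recur elsewhere, 251 in Cyp4a10 and 212 in Cyp4a31. Windows were sought in the whole transcripts of other genes, not only at their 3′ ends. Any Cyp4a32 reads from beyond the annotated end may have gone uncounted, which was not tested. Values for Cyp4a32 are therefore uncertain, also because how reads that match several genes were counted is not given in the sources used here. Those of Cyp4a31 are less so but not free of doubt. Its count as a share of that of Cyp4a10 in the same library had a median of 1.1, 1.94 and 1.52% in RYGB, WM and Sham. Few misplaced Cyp4a10 reads would therefore change its count. Whether its counts hold such reads was not tested.

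Acot1 was higher, and Vnn1 and Pdk4 were lower, in both RYGB and WM livers than in Sham livers. Ehhadh and Acot2 fell in WM livers against Sham, and Acot2 was higher in RYGB than in WM. Cyp4a32 passed in RYGB against Sham on very few counts. Cyp4a10, Cyp4a14, Cyp4a31 and Creb3l3 did not pass in any comparison. Calls are those of edgeR's quasi-likelihood test with a Benjamini-Hochberg adjusted p under 0.05 over all tested genes. For RYGB against Sham, 2 of the 10 members were called higher and 2 lower, where 12.7% of all tested genes were higher and 11% lower, so these counts are near the background. For WM against Sham, 1 member was higher and 4 were lower, where the shares of all genes were 16.5% and 15%. For RYGB against WM, 1 member was higher and 0 lower (0 lower also at an unadjusted p under 0.05 and by DESeq2), where 1.06% of all genes were higher and 0.434% lower.

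**Figure D1:**
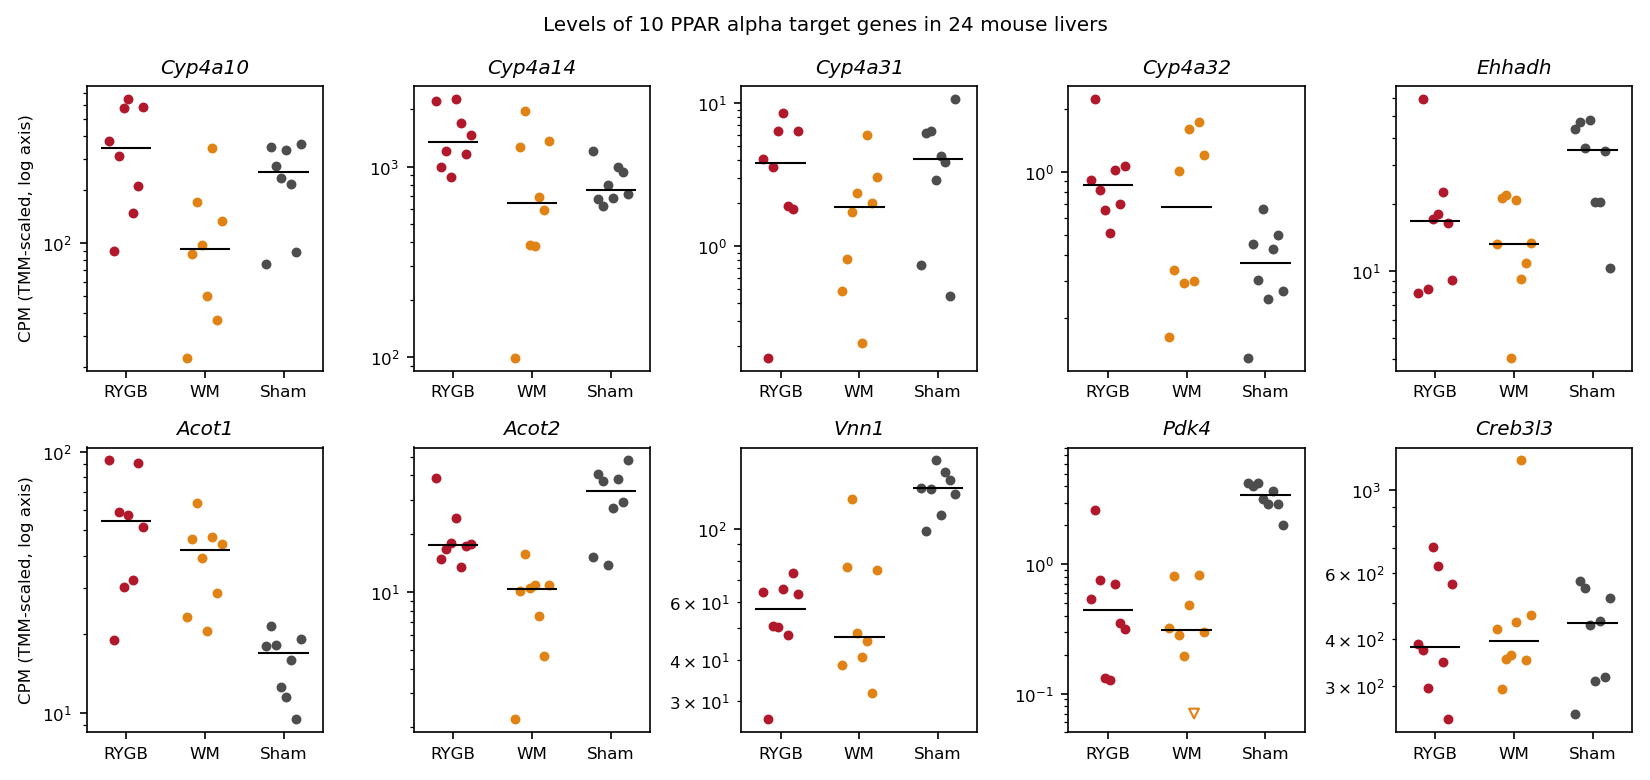
CPM of each of the 10 genes (log axes, 1 panel a gene) in RYGB, WM and Sham livers; points are libraries, n = 8 a group, bars are medians, and the open triangle is WM 25, which had no Pdk4 count. Acot1 stands higher, and Vnn1 and Pdk4 stand lower, in RYGB and WM than in Sham, while the Cyp4a10 and Creb3l3 points overlap across groups.

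Cyp4a enzymes hydroxylate the omega end of fatty acids, the entry to their breakdown as dicarboxylic acids. Cyp4a14 ranged over 878, 1340 and 2260 CPM in RYGB livers (lowest, median and highest here and below), 99.2, 643 and 1950 CPM in WM livers and 620, 755 and 1210 CPM in Sham livers. All 8 RYGB libraries lay above the Sham median and above the WM median, although the ranges overlapped, and WM livers were spread widest. The difference of RYGB from Sham was 0.84 ± 0.36 on the log2 scale (± standard error, here and below) with an adjusted p of 0.0859 in edgeR, and it missed the threshold. It passed when RYGB and Sham were fitted without WM (adjusted p = 0.00554), under limma-voom (0.0462) and when WM 1, the liver with the lowest value, was left out (0.0327, edgeR). WM and Sham differed by 0.02 ± 0.35 (95% interval -0.70 to 0.74), with both signs among the settings tried.

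Cyp4a10, the member used most often to report PPAR alpha activity in mice, stood at 90, 345 and 652 CPM in RYGB livers, 22.4, 92.3 and 346 CPM in WM livers and 76.1, 253 and 362 CPM in Sham livers. Of the 8 WM livers, 7 lay below the Sham median, and of the 8 RYGB livers 7 lay above the WM median, with overlap in every pair of groups. Against WM, RYGB livers were higher by 1.65 ± 0.46 (adjusted p = 0.0649, edgeR), and WM livers were lower than Sham livers by a log2 fold change of -1.03 ± 0.45 (adjusted p = 0.0802). Neither passed in edgeR over all 24 libraries, among which WM 25, at 346 CPM, stood above the next WM liver at 171 CPM. Without WM 25 the log2 fold changes were 2.11 (adjusted p = 0.00638) and -1.50 (adjusted p = 0.00847). With WM 25 kept, the first also passed under DESeq2 (1.63, adjusted p = 0.0339) and without RYGB 11 (1.79, adjusted p = 0.0358). The second passed under library totals (-1.33, adjusted p = 0.0167) and without Sham 2 (-1.17, adjusted p = 0.0466), and both passed under limma-voom (adjusted p = 0.00147 and 0.00085) and limma-trend (0.0347 and 0.0304). RYGB and Sham differed by 0.61 ± 0.45 (adjusted p = 0.339), and by 0.12 without the 3 libraries with acinar transcripts. Adding the counts of Cyp4a31 and Cyp4a32 to those of Cyp4a10 gave 0.60, -1.03 and 1.63 for RYGB against Sham, WM against Sham and RYGB against WM.

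Cyp4a31, a near copy of Cyp4a10, was low at 0.165, 3.84 and 8.51 CPM in RYGB livers, 0.209, 1.87 and 5.97 CPM in WM livers and 0.448, 4.07 and 10.7 CPM in Sham livers. Every pair of groups overlapped. Of the 8 WM livers 7 lay below the Sham median, and of the 8 RYGB livers 6 lay above the WM median and 4 above the Sham median. No comparison passed in edgeR (adjusted p = 0.916 for RYGB against Sham, 0.16 for WM against Sham and 0.583 for RYGB against WM). Without the acinar libraries and WM 25, WM against Sham passed (-1.70, adjusted p = 0.0235). Its count was 0.184 to 1.31% of that of Cyp4a10 in RYGB livers, 0.417 to 5.48% in WM livers and 0.504 to 2.97% in Sham livers. Cyp4a32 had 8 to 27 counts in RYGB libraries, 2 to 25 in WM libraries and 3 to 10 in Sham libraries. Its levels were 0.512, 0.866 and 2.23 CPM in RYGB, 0.162, 0.674 and 1.73 CPM in WM and 0.129, 0.366 and 0.668 CPM in Sham. Each RYGB library lay above the Sham median, with overlap, and the log2 fold change was 1.40 ± 0.49 (adjusted p = 0.0372, edgeR). This call was lost without any 1 of RYGB 11, RYGB 29, Sham 2, Sham 5, Sham 14, Sham 16 and Sham 23 (adjusted p = 0.0546 to 0.0973), under library totals (0.0944) and after a correction for length and GC content (0.0982). WM against Sham gave 1.15 ± 0.49 (adjusted p = 0.0733), and passed without WM 1 (1.30, adjusted p = 0.0421).

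Ehhadh carries the hydratase and dehydrogenase steps of peroxisomal beta-oxidation, including that of the dicarboxylic acids made through Cyp4a (chr16:21761287-21787807, GRCm38, minus strand). It stood at 7.97, 16.8 and 59.7 CPM in RYGB livers, 4.05, 13.3 and 22.1 CPM in WM livers and 10.3, 35.3 and 47.8 CPM in Sham livers. All 8 WM livers and 7 of 8 RYGB livers lay below the Sham median, and RYGB 11 lay above every Sham liver. In WM against Sham the log2 fold change was -1.18 ± 0.38 (adjusted p = 0.0186, edgeR), and it missed the threshold without the 3 acinar libraries and WM 25 (-1.09, adjusted p = 0.0546). In RYGB against Sham it was -0.71 ± 0.38 (adjusted p = 0.174) with RYGB 11 and -1.19 without it (adjusted p = 0.00985), and it also passed under library totals and limma-voom (adjusted p = 0.0297 and 0.0217). RYGB and WM differed by 0.47 ± 0.38 (adjusted p = 0.754), and by -0.016 without RYGB 11.

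Acot1 and Acot2 release fatty acids from coenzyme A, Acot1 in the cytosol and Acot2 in mitochondria. They lie in the same orientation on chromosome 12, Acot2 at chr12:83987861-83993873 and Acot1 at chr12:84009490-84018371 (plus strand, GRCm38), 15.6 kb apart. Their coding sequences are 95.5% identical, yet of 451 windows at the 3′ end 0 of Acot1 recur in another gene and 2 of Acot2 do, both in the predicted gene Gm13016. Acot1 and Acot2 therefore share no exact window at their annotated 3′ ends, while near matches and other 3′ ends were not examined. In WM livers they were called in opposite directions against Sham.

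Acot1 stood at 18.9, 54.2 and 92.6 CPM in RYGB livers, 20.5, 41.8 and 63.7 CPM in WM livers and 9.41, 16.9 and 21.4 CPM in Sham livers. Every RYGB and every WM liver lay above the Sham median, with overlap at the edge of the ranges. The log2 fold change was 1.78 ± 0.28 for RYGB against Sham (3.43-fold, adjusted p = 3.42e-05, edgeR) and 1.32 ± 0.28 for WM against Sham (2.49-fold, adjusted p = 0.000626). Both calls held without any 1 library (highest adjusted p 0.00014 and 0.00183) and in each other setting tried (highest 0.000546 and 0.00699). RYGB and WM differed by 0.46 ± 0.27 (adjusted p = 0.568).

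Acot2 stood at 13.5, 17.4 and 38.9 CPM in RYGB livers, 2.19, 10.3 and 15.7 CPM in WM livers and 13.8, 33.3 and 47.8 CPM in Sham livers. WM livers were lowest, all 8 below the Sham median, and all 8 RYGB livers lay above the WM median. WM against Sham gave -1.78 ± 0.31 (adjusted p = 6.13e-05, edgeR), a call that no alternative removed (highest adjusted p 0.000414). RYGB against WM gave 1.15 ± 0.30 (2.22-fold, adjusted p = 0.0473, edgeR), the only member called between them. That call stood at the threshold: it held when RYGB 11, RYGB 22, WM 9, Sham 2, Sham 6 or Sham 23 was left out and was lost without any other library (adjusted p = 0.0506 to 0.146, the highest without RYGB 10). It was also lost under library totals (0.0902), with no low-count filter (0.05), in the compared groups alone (0.0748) and without the acinar libraries (0.112). RYGB against Sham gave -0.63 ± 0.30 (adjusted p = 0.122), and passed without RYGB 10 (-0.84, adjusted p = 0.0374), under library totals (0.0178) and under limma-voom (0.0205).

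The ratio of the Acot1 count to the Acot2 count does not depend on library scaling. It was looked at after the values were seen and is given without a test. It was 1.27, 2.38 and 5.25 in RYGB livers, 1.9, 4.35 and 10.6 in WM livers and 0.322, 0.452 and 1.18 in Sham livers. No RYGB or WM liver overlapped the Sham range.

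**Figure D2:**
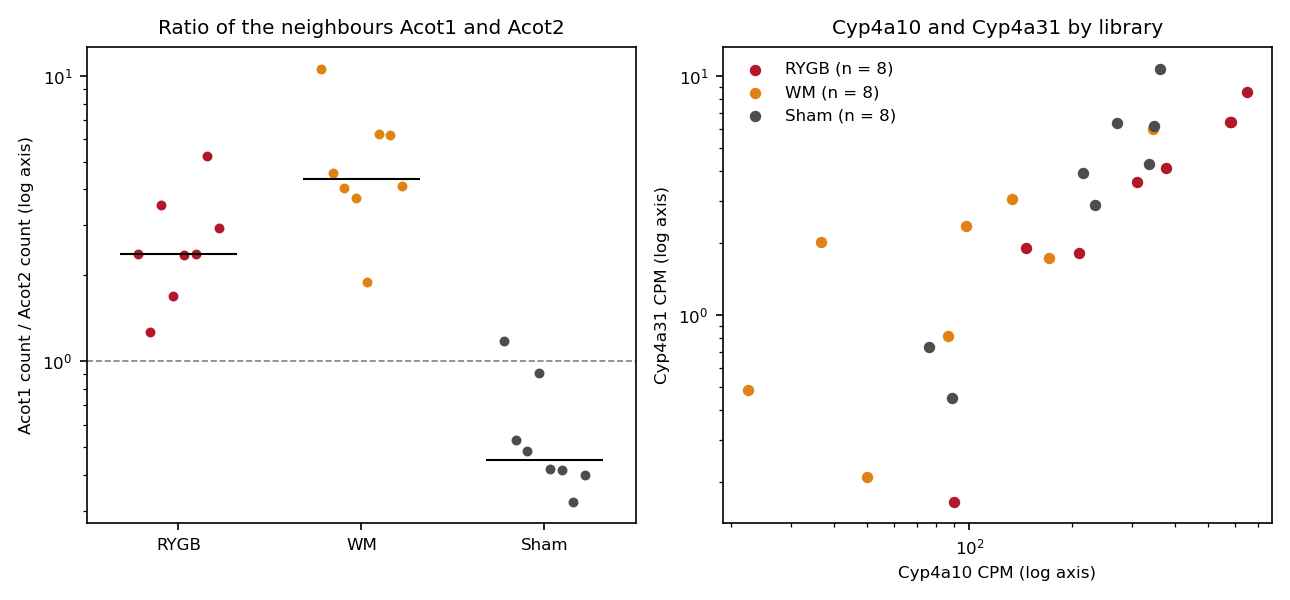
Left, Acot1 count divided by Acot2 count in each library (log axis; bars, medians; dashed line, equal counts). All RYGB and WM libraries lie above the highest Sham library, at 1.18. Right, Cyp4a31 against Cyp4a10 CPM in each library (log axes, n = 8 a group), where the points of all groups run together upward.

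The 250 bases before the start of each gene (RefSeq, GRCm38.p6, plus strand, start taken from RefSeq) are shown for these neighbours because their levels varied together among livers and were called in opposite directions in WM against Sham. Capitals mark the best match to AGGTCANAGGTCA, the direct repeat that PPAR alpha and RXR alpha bind, searched on both strands with N for any base. Acot1 is chr12:84009252-84009501 and Acot2 is chr12:83987611-83987860.
Acot1: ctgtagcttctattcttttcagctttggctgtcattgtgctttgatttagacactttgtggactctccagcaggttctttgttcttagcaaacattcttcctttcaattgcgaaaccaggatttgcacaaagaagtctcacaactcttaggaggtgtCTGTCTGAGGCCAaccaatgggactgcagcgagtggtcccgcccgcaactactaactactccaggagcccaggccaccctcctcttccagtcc
Acot2: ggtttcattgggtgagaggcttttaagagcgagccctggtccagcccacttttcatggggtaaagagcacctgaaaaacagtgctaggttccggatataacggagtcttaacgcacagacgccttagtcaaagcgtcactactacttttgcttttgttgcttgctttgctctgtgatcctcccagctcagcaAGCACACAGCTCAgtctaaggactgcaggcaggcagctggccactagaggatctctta

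Of the 12 fixed letters, the Acot1 window matched 8 and the Acot2 window 9, and 74.5% and 21.3% of 32851 promoter windows of the same length matched at least as well. Among the 7 windows found for 6 members, the best match was 10 of 12 letters, in a Creb3l3 window, which 3.2% of all windows reached. Only that window held the single repeat AGGTCA, present in 14.0% of all windows. A match is a description of these letters and not a binding site.

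Vnn1 is a pantetheinase, which releases the vitamin pantothenate and cysteamine from a breakdown product of coenzyme A (chr10:23894688-23905343, plus strand). It stood at 26.4, 57 and 73.5 CPM in RYGB livers, 31.8, 47 and 123 CPM in WM livers and 98.5, 132 and 161 CPM in Sham livers. No RYGB liver overlapped the Sham range, and WM 9 was the only WM liver that did. The log2 fold change was -1.25 ± 0.23 for RYGB against Sham (adjusted p = 0.000228, edgeR) and -1.13 ± 0.23 for WM against Sham (adjusted p = 0.000448). RYGB and WM differed by -0.12 ± 0.23 (95% interval -0.58 to 0.35, adjusted p = 0.931).

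Pdk4 phosphorylates and so shuts off pyruvate dehydrogenase, sparing glucose carbon when fat is burned, and is a classic fasting gene (chr6:5483351-5496309, minus strand). It was counted few times, with 2 to 32 counts in RYGB libraries, 0 to 12 in WM libraries and 37 to 98 in Sham libraries. Levels were 0.128, 0.445 and 2.65 CPM in RYGB livers, 0, 0.311 and 0.83 CPM in WM livers and 2, 3.44 and 4.23 CPM in Sham livers. No WM liver reached the lowest Sham liver, and RYGB 11, at 2.65 CPM, was the only RYGB liver that did. The log2 fold change was -2.31 ± 0.51 for RYGB against Sham (adjusted p = 0.00148, edgeR) and -3.06 ± 0.54 for WM against Sham (adjusted p = 7.61e-05), and both held in every alternative and without any 1 library. Without RYGB 11 the difference of RYGB from Sham was -3.003, and that of RYGB from WM was 0.06 in place of 0.75 ± 0.54.

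Creb3l3, which is both a PPAR alpha target and a liver transcription factor that drives apolipoprotein and Fgf21 genes with it (chr10:81084324-81098874, minus strand), stood at 244, 381 and 706 CPM in RYGB livers, 294, 395 and 1200 CPM in WM livers and 253, 442 and 571 CPM in Sham livers. Ranges overlapped throughout, and WM 25 was far above all other livers. Log2 fold changes were 0.06 ± 0.26 for RYGB against Sham (95% interval -0.48 to 0.60), 0.20 ± 0.26 for WM against Sham (-0.34 to 0.73) and -0.14 ± 0.26 for RYGB against WM (-0.67 to 0.40). Their signs changed with the setting, and the last was 0.20 without WM 25.

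**Figure D3:**
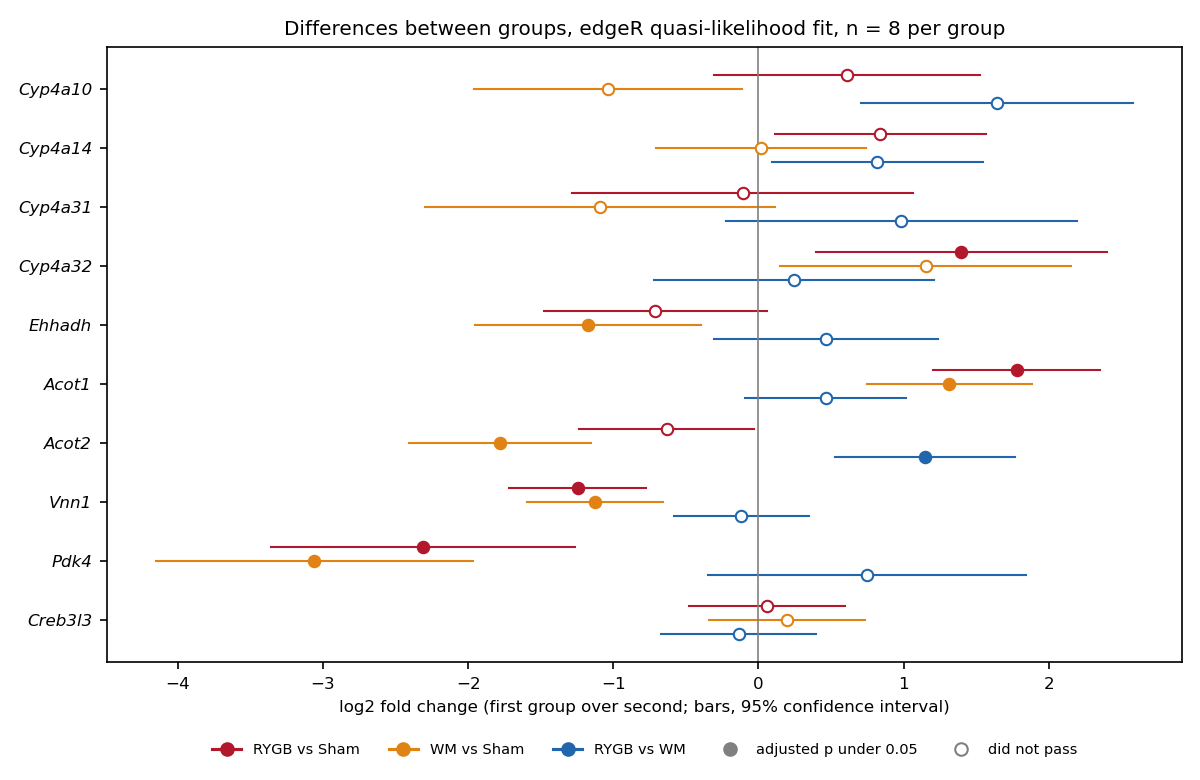
Log2 fold change of each gene (points) with its 95% confidence interval (bars) in RYGB against Sham, WM against Sham and RYGB against WM, from 1 edgeR fit of 24 libraries; filled points have an adjusted p under 0.05. Acot1 lies above 0, and Vnn1 and Pdk4 lie below it, in both comparisons with Sham, and Acot2 is the only filled point of RYGB against WM.

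The calls of Acot1, Vnn1 and Pdk4 were set beside the gradients that separate the groups. After correction of each library for length and GC content, Acot1 differed from Sham by 1.76 in RYGB and 1.344 in WM, Vnn1 by -1.22 and -1.09, and Pdk4 by -2.20 and -2.91, again all called by edgeR. Scaling by library totals moved the median of all genes to -0.36 in RYGB against Sham and -0.34 in WM against Sham, and left these 6 calls in place. Vnn1 and Pdk4 fell in livers whose summed hepatocyte markers were higher than in Sham, and Acot1 rose in them. The part of the hepatocyte share in these differences was not tested. Both comparisons use the same 8 Sham libraries and are not independent.

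Several members varied together among livers of the same group. With group means removed, 36 pairs of the 9 members with a mean of at least 1 CPM were tested by 100000 permutations of libraries within groups, and 14 passed a Benjamini-Hochberg adjusted p under 0.05 for Pearson's r, 10 of them positive. How many pairs of other genes would pass was not tested. The 14 pairs are therefore no sign that the members vary together more than other genes. Cyp4a10 and Cyp4a31, which share some 3′ sequence, had r = 0.85 (adjusted permutation p = 0.00036, from the smallest p these permutations can give, and rho = 0.84 with 0.00072), with r of 0.95, 0.72 and 0.95 within RYGB, WM and Sham and 0.82 without the 2 livers farthest from the median. The part of shared reads in this r was not tested. Here and below, the 2 farthest livers were picked by 1 gene of the pair, the earlier in the opening list of members. Outlying livers of the other gene were not sought. Creb3l3 followed Cyp4a10 (r = 0.63, adjusted permutation p = 0.0139, and rho = 0.60 with 0.0233), positive in all 3 groups at 0.68, 0.55 and 0.74, and r was 0.72 without the 2 farthest livers. Pdk4 ran against Cyp4a10 (r = -0.68, adjusted permutation p = 0.00864, and rho = -0.68 with 0.0143), at -0.87, -0.68 and -0.29 within groups, and r was -0.68 without the 2 livers farthest by Cyp4a10. Only in Sham did Pdk4 reach a mean of 1 CPM (3.4 CPM, against 0.696 in RYGB and 0.404 in WM). With 2 to 32 counts in RYGB libraries and 0 to 12 in WM libraries, r in those groups rests on few counts. In Sham, with 37 to 98 counts, r was weakest.

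Cyp4a14 and its neighbour Cyp4a10 did not pass, with r = 0.39 (adjusted permutation p = 0.19, and rho = 0.25 with 0.47). Within groups r was 0.30 in RYGB, 0.68 in WM and -0.85 in Sham, differences that were not tested, and r was 0.10 without the 2 farthest livers. Cyp4a14 was positively related to Vnn1 (r = 0.66, adjusted permutation p = 0.022, and rho = 0.70 with 0.0174), at 0.49, 0.76 and 0.48 within groups and 0.58 without the 2 farthest. Acot1 varied with Vnn1 as well (r = 0.66, adjusted permutation p = 0.00864, and rho = 0.56 with 0.049), at 0.87 in RYGB, 0.81 in WM and -0.37 in Sham, with 0.53 without the 2 farthest. Acot1 and Vnn1 were called in opposite directions against Sham, and r between them was positive within RYGB and within WM. Acot1 and Acot2 had r = 0.50 (adjusted permutation p = 0.0232, and rho = 0.48 with 0.0672), at 0.63, 0.61 and 0.36 within groups and 0.62 without the 2 farthest. Ehhadh ran against Cyp4a31 (r = -0.61, adjusted permutation p = 0.0181, and rho = -0.53 with 0.049), and r was -0.48 without the 2 farthest. By Spearman's rho 9 of the 36 pairs passed.

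**Figure D4:**
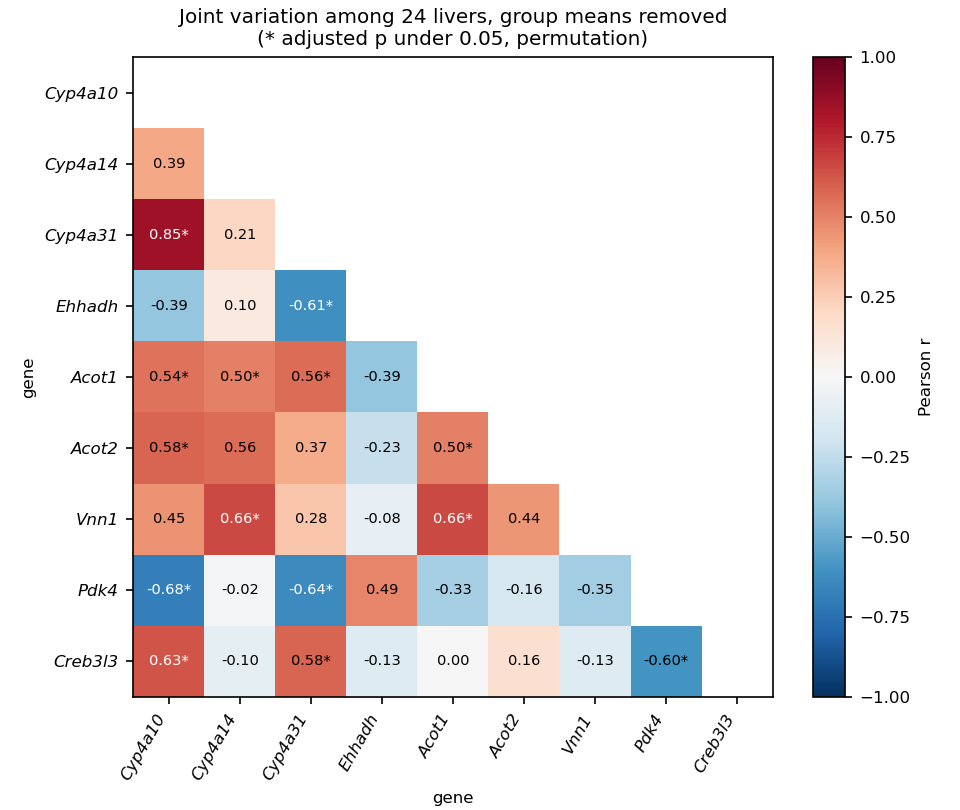
Pearson r between each pair of 9 members over 24 libraries after removing group means (colour and number; asterisk, adjusted permutation p under 0.05). Cyp4a10 and Cyp4a31 are the closest pair, at 0.85, and Pdk4 is negative with Cyp4a10, Cyp4a31 and Creb3l3. Pdk4 had only 2 to 32 counts in RYGB libraries and 0 to 12 in WM libraries.

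Ppara itself was lower in both groups. Its level was 76.2, 154 and 280 CPM in RYGB livers, 134, 191 and 484 CPM in WM livers and 126, 414 and 558 CPM in Sham livers, and all 8 RYGB livers lay below the Sham median. The log2 fold change was -1.24 ± 0.29 for RYGB against Sham (adjusted p = 0.00259, edgeR) and -0.80 ± 0.29 for WM against Sham (adjusted p = 0.0361). The WM call was lost without any 1 of WM 1, 7, 9, 13, 20 and 27 and Sham 5, 6, 16 and 17 (adjusted p = 0.0502 to 0.0773). Rxra, the partner receptor, was higher in WM than in Sham (0.52 ± 0.18, adjusted p = 0.0281), but not under library totals (0.17, adjusted p = 0.455) or limma-voom (0.0532), nor without WM 25, WM 30 or Sham 16 (adjusted p up to 0.0893). In RYGB against Sham it was 0.39 ± 0.18 (adjusted p = 0.117), and passed under limma-voom (0.0383) and after the length and GC correction (0.54, adjusted p = 0.00549). Ppargc1a, a coactivator of fasting, averaged 7.66 ± 2.74 CPM in WM livers and 15.5 ± 3.75 CPM in Sham livers (SD, n = 8 each), without overlap (-1.01 ± 0.21, adjusted p = 0.000422, edgeR), and in RYGB against Sham it did not pass (-0.24 ± 0.20, adjusted p = 0.406). Of 20 genes for PPAR alpha, its partners and co-regulators, 0 rose (1 at an unadjusted p under 0.05 in edgeR) and 2 fell (10%) in RYGB against Sham (median -0.24), the second being the corepressor Nrip1 (-0.90), and 1 rose (5%) and 6 fell (30%) in WM against Sham (median -0.22), where medians over all tested genes were -0.015 and -0.008. Of all tested genes, 12.7% rose and 11% fell in RYGB and 16.5% and 15% in WM against Sham. Those shares are the background for this list and each list below.

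The wider target set did not move one way. Of 66 tested PPAR alpha targets outside the members, 8 rose (12.1%) and 13 fell (19.7%) in RYGB against Sham (median -0.04), 12 rose (18.2%) and 18 fell (27.3%) in WM against Sham (median -0.11), and 2 rose (3.03%) and 0 fell (4 at an unadjusted p under 0.05 in edgeR) in RYGB against WM. In RYGB against WM, 1.06% of all tested genes rose and 0.434% fell. Cpt1a, the gate of mitochondrial oxidation, averaged 175 ± 39.9 CPM in RYGB, 200 ± 54.8 CPM in WM and 216 ± 33.7 CPM in Sham (SD, n = 8 each) and passed in no comparison (adjusted p = 0.207 for RYGB against Sham, 0.669 for WM against Sham and 0.783 for RYGB against WM, edgeR). Cpt1a in RYGB against Sham was called lower under library totals (-0.63, adjusted p = 0.00652), under limma-voom (0.0499) and without the acinar libraries and WM 25 (0.0324). Pex11a, which divides peroxisomes, fell in RYGB (-1.16) and WM (-0.77) against Sham, as did the fatty acid transporter Cd36 (-1.45 and -2.52) and the hormone Fgf21 (-2.10 and -2.45). Malonyl-CoA decarboxylase, Mlycd, rose in both (0.85 and 1.01). The peroxisomal isomerase Eci2 rose in WM (0.83), and its call in RYGB (0.44) was lost under library totals (0.11, adjusted p = 0.591) and without the acinar libraries (0.37, adjusted p = 0.0836). In RYGB against WM the 2 that rose were Cd36 (1.07, adjusted p = 0.00542) and the lipid droplet gene Cidea (2.31, adjusted p = 0.0301), which had fallen in both comparisons with Sham (-3.24 and -5.55). The Cidea call between RYGB and WM was lost without any of 8 libraries, without the acinar libraries (adjusted p = 0.122), in the compared groups alone (0.054), under limma-trend (0.0864) and under limma-voom (0.356).

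**Figure D5:**
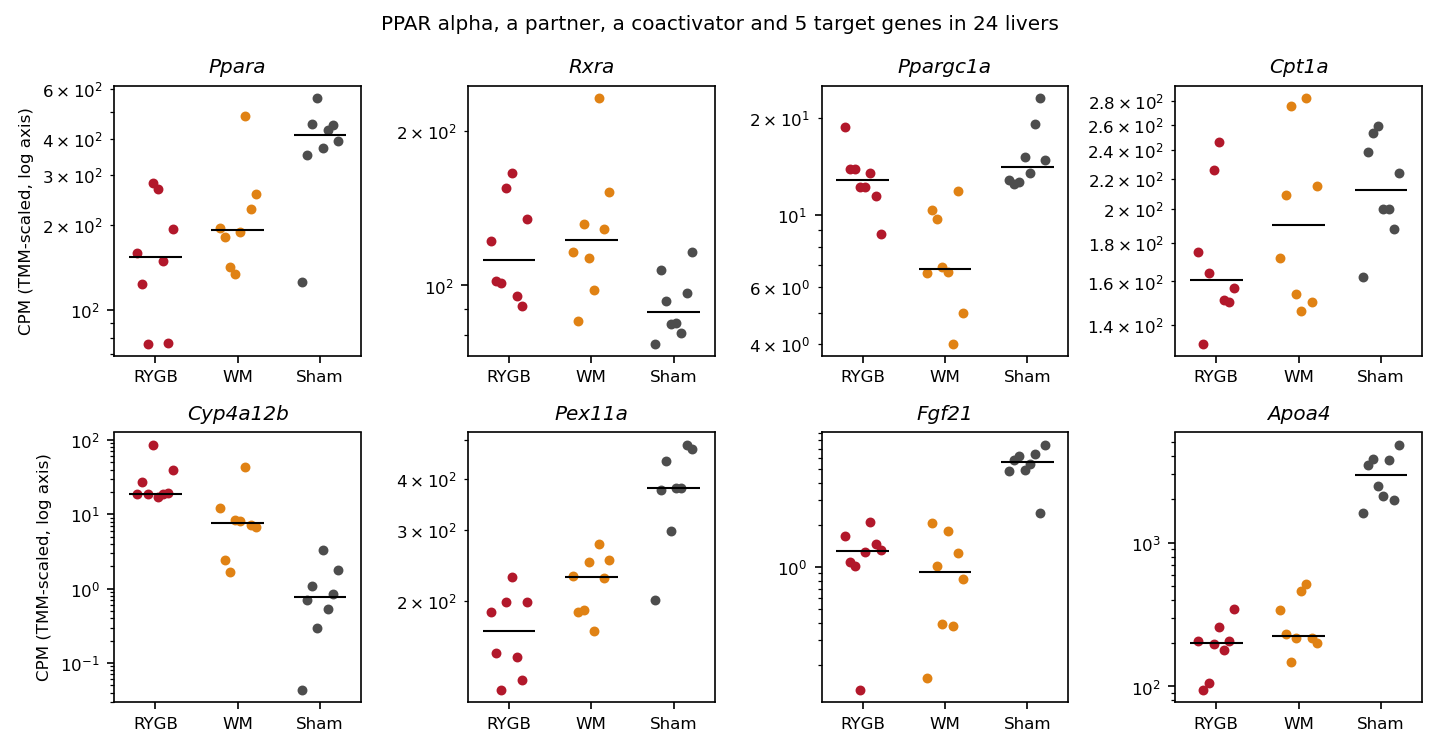
CPM of Ppara, its partner Rxra, the coactivator Ppargc1a, the targets Cpt1a, Cyp4a12b, Pex11a and Fgf21 and the CREB3L3 target Apoa4 (log axes) in RYGB, WM and Sham livers; points are libraries, n = 8 a group, bars are medians. Fgf21 and Apoa4 are lower in every RYGB and WM liver than in any Sham liver, while the Cpt1a ranges overlap.

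Among 13 tested Cyp4 genes, members included, 4 rose (30.8%) and 0 fell in RYGB against Sham (1 lower at an unadjusted p under 0.05 in edgeR), and 4 rose (30.8%) and 1 fell (7.69%) in WM against Sham. Cyp4a12b, a hydroxylase that predominates in male mice, averaged 30.6 ± 23.7 CPM in RYGB, 11.1 ± 13.2 CPM in WM and 1.07 ± 1.03 CPM in Sham (SD, n = 8 each). Its log2 fold changes against Sham were 4.82 and 3.36 (adjusted p = 3.04e-06 and 0.000102, edgeR). The near copy Cyp4a12a did not pass (1.04 and 0.47). Whether the reads tell Cyp4a12a and Cyp4a12b apart was not tested. Cyp4f14, a leukotriene hydroxylase, rose in both (1.72 and 1.75), and Cyp4f18 was the 1 lower in WM (-1.28, adjusted p = 0.0368, edgeR). Cyp4f18 was near the floor, at a mean of 0.458 CPM in WM and 1.11 CPM in Sham. Its call was lost without any of 7 libraries and without the acinar libraries (adjusted p = 0.0566). Of 13 thioesterases, Acot1 and Acot2 included, 2 rose (15.4%) and 1 fell (7.69%) in RYGB and 5 rose (38.5%) and 2 fell (15.4%) in WM against Sham. Acot13 rose in RYGB (0.67), Acot8 and Acot12 rose in WM (0.60 and 0.52), and Acot11 fell in both (-1.17 and -1.05). Under library totals the calls of Acot13 (0.33, adjusted p = 0.218), Acot8 (0.24, adjusted p = 0.271) and Acot12 (0.20, adjusted p = 0.412) were lost, and after the length and GC correction those of Acot13 (0.18, adjusted p = 0.515) and Acot8 (0.18, adjusted p = 0.392). Acot3, a peroxisomal thioesterase, was 1.32 ± 0.50 higher in WM (adjusted p = 0.0444), a call lost without any of 10 libraries (highest adjusted p 0.126), without the acinar libraries (0.0503), under library totals (0.108), under limma-voom (0.126) and under limma-trend (0.77, adjusted p = 0.302). Acot4 did not pass (0.43 and 0.33), except after the length and GC correction (0.74 and 0.66, adjusted p = 0.00586 and 0.0103).

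Of 21 genes of peroxisomal oxidation, Ehhadh included, 5 rose (23.8%) and 2 fell (9.52%) in RYGB against Sham, and 6 rose (28.6%) and 5 fell (23.8%) in WM against Sham. Phyh and Pecr, which handle branched and unsaturated chains, rose in both (1.19 and 0.93, 1.01 and 1.03), and the transporter Abcd2 fell in RYGB (-1.10) and in WM (-0.81), the WM call being lost after the length and GC correction (-0.43, adjusted p = 0.13) and without the acinar libraries and WM 25 (0.0545). Beside Pdk4, the kinases Pdk1 and Pdk2 did not pass (adjusted p at least 0.665 for Pdk1 and 0.822 for Pdk2), although limma-voom called Pdk2 lower in WM (-0.84, adjusted p = 0.0413). Of 13 tested genes of the pyruvate dehydrogenase step, Pdk4 included, 2 rose (15.4%) and 1 fell (7.69%) in RYGB, and 2 rose (15.4%) and 3 fell (23.1%) in WM, the pyruvate carrier Mpc2 (0.91 and 0.72) and the subunit Pdhx (0.54 and 0.60) rising in both and Mpc1 (-0.83) and Pdha1 (-0.62) falling in WM. Under library totals the calls of Pdhx in RYGB (0.20, adjusted p = 0.408) and WM (0.28, adjusted p = 0.219) and of Mpc2 in WM (0.42, adjusted p = 0.112) were lost. In RYGB against WM the subunit Dlat was higher (0.77, adjusted p = 0.00947), but not under library totals (adjusted p = 0.0832).

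Of 14 genes of coenzyme A recycling and synthesis, Vnn1 included, 3 rose (21.4%) and 2 fell (14.3%) in RYGB, and 3 rose (21.4%) and 4 fell (28.6%) in WM. The peroxisomal coenzyme A hydrolases Nudt7 (1.54 and 2.17) and Nudt19 (0.83 and 0.72) rose in both, Slc5a6, a vitamin transporter, fell in RYGB (-0.73, lost without any of 7 libraries), and Pank3 (-0.77) and Enpp3 (-0.71) fell in WM. Both WM calls were lost after the length and GC correction (-0.16, adjusted p = 0.458, for Pank3 and -0.38, adjusted p = 0.177, for Enpp3). The relative Vnn3 did not pass (0.29 and 0.32). Of 11 targets of CREB3L3, 3 rose (27.3%) and 6 fell (54.5%) in RYGB and 2 rose (18.2%) and 6 fell (54.5%) in WM, with Creb3l3 itself not called. Apoa4, a lipid-binding apolipoprotein, averaged 199 ± 80.3 CPM in RYGB, 292 ± 133 CPM in WM and 3010 ± 1120 CPM in Sham (SD, n = 8 each; log2 fold changes -3.92 and -3.36, adjusted p = 1.23e-09 and 5.61e-09, edgeR). Cidec, of lipid droplets, fell as well (-4.61 and -5.06), while Apcs (1.31 and 0.63) and Apoa1 (0.99 and 0.93) rose. The WM call of Apcs was lost under library totals (0.33, adjusted p = 0.276) and after the length and GC correction (0.32, adjusted p = 0.134). The Apoa1 calls were lost without any of 6 libraries in RYGB and any of 8 in WM, under library totals (adjusted p = 0.0726 and 0.108), after the correction (0.058 and 0.179) and without the acinar libraries (0.188 and 0.0692), and in WM also under limma-voom (0.102) and in the compared groups alone (0.0509). Between RYGB and WM, Insig2 (1.22) and Lpl (1.18, lost without any of 6 libraries, under library totals, adjusted p = 0.0826, and under limma-voom, 0.0659) were higher and Hamp (-4.74) was lower.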

How the data were processed

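Liver RNA of 24 libraries (8 each RYGB, WM and Sham) was made into QuantSeq 3′ libraries and read for 50 bp in the forward direction, per the labels' protocols. The authors deposited raw read counts for 14995 Ensembl genes. They also deposited a normalized signal, each count divided by 1 size factor per library. DESeq2 1.34 and R 4.1.2 appear in the submitters' processing notes; not given in the sources used here are aligner, build, strand setting and the handling of reads that match several genes. All columns mapped to a labelled sample. Genes were named through GENCODE M21.

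Tests on the counts used edgeR 4.0.16 under R 4.3.3. Genes kept by filterByExpr (13121) were scaled by TMM and fitted in 1 quasi-likelihood model of 24 libraries with no covariate, with Benjamini-Hochberg adjustment over all tested genes. Precision rests on totals of 13659647 to 22766612 counts, a common biological coefficient of variation of 0.398 and 8 libraries a group. No 2 libraries of the same group agreed within counting noise, and pairs across groups were not compared. A TMM-scaled level assumes that most genes do not change.

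The members and the gene lists were chosen with earlier results of these data known. Outside the members the text names a set of genes (some are not reported here), the 2 called genes with the smallest p per list, direction and comparison, and the 5 genes most alike to Cyp4a14, Pdk4 and Creb3l3 by Pearson r. Alternatives were DESeq2 1.42.0, RLE scaling, library totals, no low-count filter, 1 CPM in 8 libraries, limma-voom (limma 3.58.1, with sample weights), a fit of only the groups compared, limma-trend on log2 of the deposited signal plus 1, a length and GC correction (mgcv 1.9.3), omission of the 3 acinar libraries and of each library. Omitting WM 25 with the acinar libraries was added after seeing the data. Procedures were tested on simulated data. Promoter sequences are from RefSeq (GRCm38.p6), and 6 of 10 members had an entry.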

Additional observations from a re-analysis of the deposited data

Results flagged for a closer look

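Each of the 10 genes was checked in each of the 3 groups for a library far from the other 7 by Dixon's ratio of gap to range at its 95% critical value, and 6 of 30 checks found one. A rate of about 1 in 20 holds for independent, normally distributed values. These checks used CPM that were not logged, from the same libraries for all 10 genes, so 6 of 30 cannot be set against it. RYGB 11 was the high library for Ehhadh at 59.7 CPM (next RYGB liver 22.8), for Pdk4 at 2.65 CPM (next 0.754) and for Cyp4a32 at 2.23 CPM (next 1.07). The same library had the lowest Cyp4a10 (90 CPM), Acot1 (18.9 CPM) and Vnn1 (26.4 CPM) of its group, the smallest total of its group (14002193 counts) and the lowest summed hepatocyte markers of its group (78200 CPM). WM 25 was the high library for Cyp4a10 at 346 CPM (next WM liver 171) and for Creb3l3 at 1200 CPM (next 463), had no Pdk4 count and had the highest summed hepatocyte markers of all libraries (135000 CPM). RYGB 10 was the high library for Acot2 at 38.9 CPM (next RYGB liver 24.1) and also had the highest Acot1 of all libraries, at 92.6 CPM. The part of these library features in the member values was not tested.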

How the results depend on the processing

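Direction and call of Acot1, Vnn1 and Pdk4 in both comparisons with Sham, and of Acot2 in WM against Sham, held in every setting and without any 1 library. Members called numbered 4 in RYGB against Sham, 7 under limma-voom and 3 to 5 without any 1 library; 5 in WM against Sham, 5 to 6 without any 1 library; and 1 in RYGB against WM, where they were 0 under library totals, with no low-count filter, in the compared groups alone and without the 3 acinar libraries, 2 under DESeq2, limma-voom and limma-trend, and 0 to 2 without any 1 library. Pairs that vary together numbered 14, and 9 by Spearman's rho. Under library totals the calls over all genes in RYGB against Sham split 754 higher and 3534 lower, in place of 1666 and 1443, and in WM against Sham 1049 and 3637, in place of 2161 and 1964. After the length and GC correction the splits were 1868 and 1089, and 2360 and 1416. Under limma-voom, where 7 members were called in RYGB against Sham, calls over all genes rose as well, to 2420 and 2598, and 2562 and 2795. For all genes in RYGB against WM, calls were 228 and 133 under DESeq2, 94 and 27 in the compared groups alone and 228 and 112 after the correction, in place of 139 and 57.

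Among members, signs turned for uncalled values only. Creb3l3 in RYGB against Sham was -0.27 under library totals, -0.12 under limma-voom, -0.05 after the correction, -0.26 without the acinar libraries, with or without WM 25, and -0.067 to 0.15 without any 1 library. Creb3l3 in WM against Sham was -0.155 under library totals, -0.18 under limma-voom, -0.19 without the acinar libraries and WM 25, and -0.142 to 0.28 without any 1 library. Cyp4a14 in WM against Sham was -0.27 under library totals, -0.33 under limma-voom, -0.40 under limma-trend and -0.28 to 0.19 without any 1 library. In RYGB against WM, limma-voom gave -0.006 for Ehhadh, 0.001 for Vnn1 and 0.058 for Creb3l3, and ranges without any 1 library were -0.016 to 0.58, -0.21 to 0.12, -0.26 to 0.20 and, for Cyp4a32, -0.027 to 0.48. Cyp4a31 in RYGB against Sham ranged over -0.35 to 0.22. The cause was not tested.

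Outside the members, 19 of 65 calls were lost in a setting other than leaving out 1 library, 14 of them under library totals and 8 after the length and GC correction, and 9 were lost without any 1 library. Of the 46 calls kept, 15 moved by over 1.5 times. Those that shrank did so under library totals or after the correction, where Ppargc1a in WM against Sham was -0.54 and Nrip1 in RYGB against Sham -0.51. Of 29 uncalled values outside the members, 15 changed sign in some setting, and 1 was then called: Acot13 in WM against Sham, -0.49 after the correction (adjusted p = 0.0381).

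No paired analysis was possible because the groups share no replicate numbers. Depth limits Cyp4a32 (2 to 27 counts a library) and Pdk4 in RYGB and WM (0 to 32). The widest standard errors among members were those of Cyp4a31 (0.575 to 0.591). The 8 Sham libraries serve both comparisons with Sham, and the acinar libraries lie in RYGB and Sham.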

Other observations

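Among tested genes outside the 10, those most alike in pattern were sought over 24 libraries with group means removed, as a description with no test. Closest to Cyp4a14 were the organic anion transporter Slc22a27 (r = 0.835), the thioesterase Acot3 (0.813), the prolactin receptor Prlr (0.779), the lipoprotein receptor Vldlr (0.764) and the cytochrome P450 Cyp2a22 (0.761). Cyp4a10, its neighbour on chromosome 4, had r = 0.39. Closest to Pdk4 were the zinc finger gene Zbtb6 (0.839), the mitophagy receptor Fundc1 (0.837), the DNA demethylase Tet2 (0.831), Tmem87a (0.83) and Mob1a (0.825). Pdk4 itself had few counts, 2 to 32 in RYGB libraries and 0 to 12 in WM libraries. RYGB 11, at 2.65 CPM against 0.754 CPM in the next RYGB liver, weighs on its values. Closest to Creb3l3 were Ogdh, of the citric acid cycle (0.957), the splicing factor gene Sf3b2 (0.944), Lims2 (0.937), Ap3d1 (0.935) and Pdxk, the vitamin B6 kinase (0.933). WM 25 had the highest Creb3l3 of the 24 libraries, at 1200 CPM, and weighs on these values.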
